A study of Homo sapiens with 9 samples.

Results

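LINC00668 and DLGAP1-AS2 are a pair of long noncoding RNAs (lncRNAs) transcribed from the short arm of chromosome 18, in band 18p11.31. They were chosen from their measured values, because their counts stood far above the untreated controls in treated U-87 cells, an established line from a human glioblastoma. They are 2 of the 80015 genes and unmatched transcripts in the count table and 2 of the 609 with enough counts to be tested. Their own changes are therefore given as a description, with standard errors and without a p-value. Where a share of all genes that passed a test is printed, it is said whether the pair were among them, and nothing is read from that. The question was how the transcription of each depended on the concentration of evernic acid (EA), a lichen metabolite, and of temozolomide (TMZ), the alkylating drug used against glioblastoma.

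All libraries came from total RNA of U-87 cells after 24 h, sequenced from the 3′ ends of polyadenylated transcripts. There were 3 libraries of untreated controls and 1 library of each treatment. EA30 and EA45 received 30 and 45 µM EA, and TMZ600 received 600 µM TMZ. The combinations were EA35TMZ320 (35 µM EA and 320 µM TMZ), EA20TMZ380 (20 and 380 µM) and EA20TMZ580 (20 and 580 µM). The study's methods state repeated independent experiments in general terms, but the labels do not say whether the control libraries came from separate cultures, and each treatment is represented here by a single library. Errors and p-values therefore measure only the spread between these libraries, which may be technical.

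The controls held 259753 to 285248 counts and the treated libraries 213566 to 490235. Transcripts of the mitochondrial genome took 48.4 to 49.1% of the counts in the controls and 51.7 to 58.7% in the treated libraries. Of 15 markers of glioblastoma and astroglia, 3 had any count (NES, SLC1A3 and TNC), and GFAP, VIM and SOX2 were listed at 0; since most genes were listed so, a 0 is not taken here to mean that a transcript was missing. Nearly all of their counts were of NES (706, against 26 and 2 for the others). The summed level of these markers was 598 to 670 CPM (counts scaled to a common library size, here by the library total) in the controls and 52.2 to 184 CPM in the treated libraries. Markers of fibroblasts, immune cells, epithelium, neurons and endothelium each summed to at most 19.2 CPM in any library, scaled likewise. All CPM given below for single genes are after TMM scaling. The part of the mitochondrial share and of the lower NES level in the results was not tested.

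Long noncoding RNAs are transcribed by RNA polymerase II and are often spliced and polyadenylated like mRNA, yet encode no known protein. They can act in the nucleus on chromatin and neighbouring genes or in the cytoplasm by pairing with microRNAs, mRNAs and proteins. Both LINC00668 and DLGAP1-AS2 have been described as elevated in several cancers, DLGAP1-AS2 in glioma among them.

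LINC00668 was counted under 1 RefSeq transcript, NR_034100.1, and DLGAP1-AS2 under 1, NR_119377.1. In the RefSeq annotation of GRCh38.p14, LINC00668 lies at chr18:6925474-6929869 on the minus strand, between genes. DLGAP1-AS2 lies at chr18:3603737-3610089 on the plus strand, inside the span of DLGAP1 at chr18:3496032-4455307 on the minus strand. The pair lie 3315385 bases apart, so they are no direct neighbours. In the GENCODE annotation 0 of the 3 exons of DLGAP1-AS2 overlapped an exon of DLGAP1. That model ends at chr18:3608336, before the end of the RefSeq span, so the last stretch of the counted gene was not checked. Whether counting used the strand is not given in the sources used here, and without it reads from DLGAP1 and from DLGAP1-AS2 cannot be told apart. The pseudogene SCML2P1 lies within the span of LINC00668 and had no row in the table.

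The start regions of both RNAs are printed because the 2 genes had the highest levels relative to the controls while their promoters differed in composition. Each window runs 5′ to 3′ from 250 bases before to 50 bases after the start, on the strand of the gene, from RefSeq on GRCh38.p14. The first is chr18:6929820-6930119 on the minus strand, with capitals marking GGGCGG, the GC box bound by Sp1-type factors. The second is chr18:3603487-3603786 on the plus strand, with capitals marking TGANTCA, the core of the AP-1 consensus.
LINC00668: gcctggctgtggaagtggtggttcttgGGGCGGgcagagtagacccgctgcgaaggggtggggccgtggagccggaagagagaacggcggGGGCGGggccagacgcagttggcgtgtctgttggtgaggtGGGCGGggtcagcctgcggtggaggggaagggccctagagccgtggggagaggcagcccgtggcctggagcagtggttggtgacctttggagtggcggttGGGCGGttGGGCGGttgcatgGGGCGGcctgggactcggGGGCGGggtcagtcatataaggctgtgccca
DLGAP1-AS2: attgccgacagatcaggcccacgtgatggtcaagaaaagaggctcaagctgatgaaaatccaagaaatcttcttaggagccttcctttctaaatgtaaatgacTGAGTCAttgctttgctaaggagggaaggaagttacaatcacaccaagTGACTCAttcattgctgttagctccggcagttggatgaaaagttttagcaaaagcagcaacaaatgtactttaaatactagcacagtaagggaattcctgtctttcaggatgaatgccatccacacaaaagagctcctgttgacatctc

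The window of LINC00668 had a GC content of 69.3% and 20 CpG dinucleotides, against medians of 58.7% and 14 over all promoters of the table. The window of DLGAP1-AS2 had 42.0% and 3. Searched on both strands, the window of LINC00668 held GGGCGG 7 times, a motif found in 45.0% of 35116 promoters, and that of DLGAP1-AS2 did not hold it. The window of DLGAP1-AS2 held TGANTCA 2 times, at bases -147 to -141 and -99 to -93 counted from the first transcribed base as 0, against 7.71% of promoters with at least 1 match. It also held ACGTG on both strands at overlapping positions (21.4% of promoters). TGACNNNGC, the core of the antioxidant response element, occurred 2 times in the window of LINC00668, both on the opposite strand and both overlapping a GGGCGG match (13.3% of promoters). Neither window held the TATA box TATAAA (11.5% of promoters), the CAAT box CCAAT (34.6%) or the TEAD-type motif GGAATG (14.0%). These matches are letters in a window, and binding was not measured.

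Because the libraries read transcripts from their 3′ ends, the end of LINC00668 is the stretch nearest to where its reads were primed. The GENCODE transcript paired with NR_034100.1 has 7 exons and 1748 bases. Its last 80 bases, at chr18:6925477-6925556 on the minus strand, are printed 5′ to 3′ with the polyadenylation signal AATAAA in capitals, which begins 25 bases from the end.
LINC00668 end: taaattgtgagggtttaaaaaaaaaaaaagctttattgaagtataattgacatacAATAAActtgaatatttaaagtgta

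LINC00668 was low and even in the untreated cells. Its counts were 32, 38 and 35 in the 3 controls, which is 111, 137 and 114 CPM (121 ± 14.4, SD, n = 3). With EA alone it was counted 301 times in EA30 (694 CPM) and 662 times in EA45 (2241 CPM). In the combinations it had 401 counts in EA35TMZ320 (1953 CPM), 151 in EA20TMZ380 (467 CPM) and 99 in EA20TMZ580 (320 CPM), and TMZ600 had 83 (245 CPM). All 6 treated libraries lay above all 3 controls, the lowest of them, TMZ600, 1.79-fold above the highest control. The highest levels were in the libraries with the most EA, and the lowest in the one without EA.

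DLGAP1-AS2 was close to the detection limit in the untreated cells. It had 2, 6 and 8 counts in the controls, which is 6.93, 21.7 and 26.1 CPM (18.2 ± 10.0, SD, n = 3). For counting error alone, the 95% Poisson interval of the lowest of these ran from 0.242 to 7.22 counts. EA30 had 39 counts (89.9 CPM) and EA45 72 (244 CPM). EA35TMZ320 had 114 (555 CPM), EA20TMZ380 46 (142 CPM), EA20TMZ580 47 (152 CPM) and TMZ600 64 (189 CPM). Again the treated and untreated libraries did not overlap, with the lowest treated library, EA30, 3.45-fold above the highest control. The highest level was in the combination with the most EA, while TMZ600 lay above EA30 and both combinations with 20 µM EA.

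**Figure D1:**
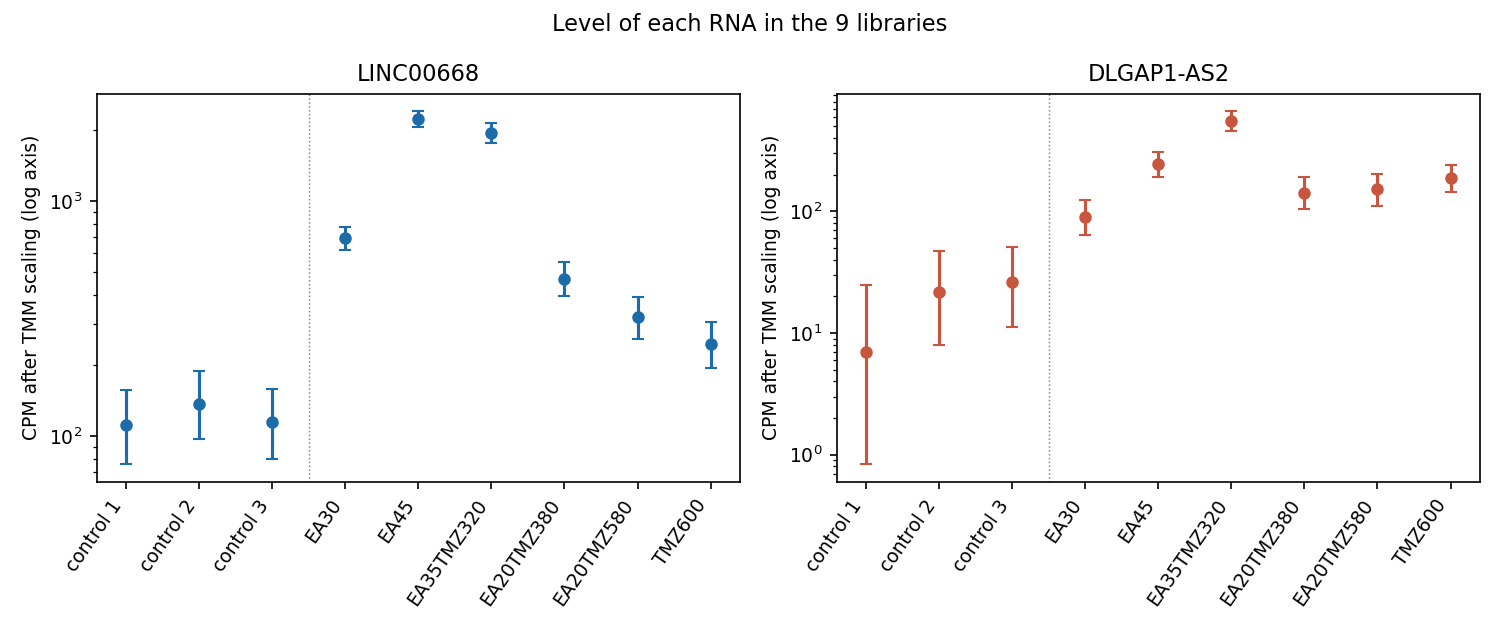
CPM after TMM scaling (log axis) of LINC00668 and DLGAP1-AS2 in each of the 9 libraries, with bars for the 95% Poisson interval of the counts; the dotted line divides controls from treated libraries. LINC00668 runs from 111 to 137 CPM in the controls and from 245 to 2241 CPM in the treated libraries, and DLGAP1-AS2 from 6.93 to 26.1 and from 89.9 to 555 CPM.

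All 6 treated libraries lay above all 3 controls for 8.05% of the 609 genes. In the comparison of the 6 treatments as 1 group with the controls, 2.79% of genes were called higher at an adjusted p of 0.05 (edgeR quasi-likelihood fit, Benjamini-Hochberg over all genes). Both RNAs were among them, as the values that chose them fix. Their log2 differences were 3.59 (SE 0.66) for DLGAP1-AS2 and 3.02 (SE 0.73) for LINC00668, the highest and next highest of the 609 genes, whose median was 0.03. The treated libraries differ in dose and are not replicates, so these are averages over unlike conditions.

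In the fit with 1 coefficient per condition the spread came from the 3 controls alone, with information shared across genes, so its standard errors carry no measure of how a repeated treatment would vary. Against the controls one treatment at a time, LINC00668 was higher by 2.52 on the log2 scale in EA30 (SE 0.21), 4.21 in EA45 (SE 0.19) and 4.01 in EA35TMZ320 (SE 0.20). The differences were 1.95 in EA20TMZ380 (SE 0.23), 1.40 in EA20TMZ580 (SE 0.25) and 1.02 in TMZ600 (SE 0.25). It had the highest log2 difference of all 609 genes in EA30 and in EA45, and stood 3rd in EA35TMZ320, 7th in EA20TMZ380, 19th in EA20TMZ580 and 22nd in TMZ600. Its rank among the genes was thus highest with EA alone and lowest in TMZ600 and EA20TMZ580, the libraries with the most TMZ. Of these, TMZ600 received no EA, and EA20TMZ580 received the lowest EA concentration used, as did EA20TMZ380. A low rank therefore went with little EA as well as with much TMZ, and the ranks alone do not separate the agents.

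DLGAP1-AS2 differed by 2.27 in EA30 (SE 0.49), 3.71 in EA45 (SE 0.45) and 4.89 in EA35TMZ320 (SE 0.43). The log2 differences were 2.93 in EA20TMZ380 (SE 0.47), 3.02 in EA20TMZ580 (SE 0.47) and 3.34 in TMZ600 (SE 0.46). It stood among the 3 highest genes in each of the 6 treatments. Its standard errors were larger than those of LINC00668, beside control counts of only 2 to 8.

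The share of genes called higher was 4.27% with TMZ600, and 8.87% and 19.9% with EA30 and EA45. Of the combinations, EA20TMZ380 had 11.8%, EA20TMZ580 12.5% and EA35TMZ320 19.4%. Both RNAs were called higher in each, as were 9 genes in all, which is 1.48% of those tested. Nothing is read from these calls, since the pair was chosen on the same values.

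The order of levels compares single libraries, and the standard errors are again those of the controls. For LINC00668, EA20TMZ580 exceeded TMZ600 by 0.38 on the log2 scale (SE 0.28) and EA45 exceeded EA35TMZ320 by 0.20 (SE 0.22), both under 2 SE of that spread. EA20TMZ380 exceeded EA20TMZ580 by 0.55 (SE 0.27), EA30 exceeded EA20TMZ380 by 0.57 (SE 0.24) and EA35TMZ320 exceeded EA30 by 1.49 (SE 0.23), each over 2 SE. Whether repeated treatments would keep this order was not measured.

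For DLGAP1-AS2 the 4 steps from EA30 up through EA20TMZ380, EA20TMZ580 and TMZ600 to EA45 were each under 2 SE, with log2 differences of 0.66 (SE 0.52), 0.09 (SE 0.51), 0.32 (SE 0.50) and 0.37 (SE 0.49). EA35TMZ320 exceeded EA45 by 1.19 (SE 0.49). The library with the highest level was thus the combination for DLGAP1-AS2, at 555 CPM, and EA45 for LINC00668, at 2241 CPM.

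To describe the dependence on dose, both concentrations were entered in 1 additive model over the 9 libraries, with a log2 change per 10 µM EA and per 100 µM TMZ. Its standard errors and adjusted p-values also take in how far the single treated libraries depart from the model. They are therefore no measure of the spread between replicates alone. LINC00668 had an EA term of 0.92 (SE 0.08) and a TMZ term of 0.09 (SE 0.06). DLGAP1-AS2 had an EA term of 0.79 (SE 0.12) and a TMZ term of 0.45 (SE 0.09). Among the 609 genes LINC00668 had the highest EA term and stood 100th in the TMZ term, while DLGAP1-AS2 stood 3rd and 1st. The medians of all genes were -0.01 per 10 µM EA and 0.00 per 100 µM TMZ.

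Of all genes, 27.3% passed an adjusted p of 0.05 in the EA term in either direction and 14.1% as higher. In the TMZ term these shares were 3.61% and 1.31%. Both RNAs were called higher in the EA term and DLGAP1-AS2 in the TMZ term, with the same reserve about how they were chosen. With the agents coded by presence or absence in place of concentration, DLGAP1-AS2 was called in neither term. The TMZ term of LINC00668 leaned on single libraries. It was 0.0065 without TMZ600, 0.05 without EA35TMZ320 and 0.17 without EA20TMZ580. That of DLGAP1-AS2 stayed between 0.33 and 0.55 whichever library was left out.

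**Figure D2:**
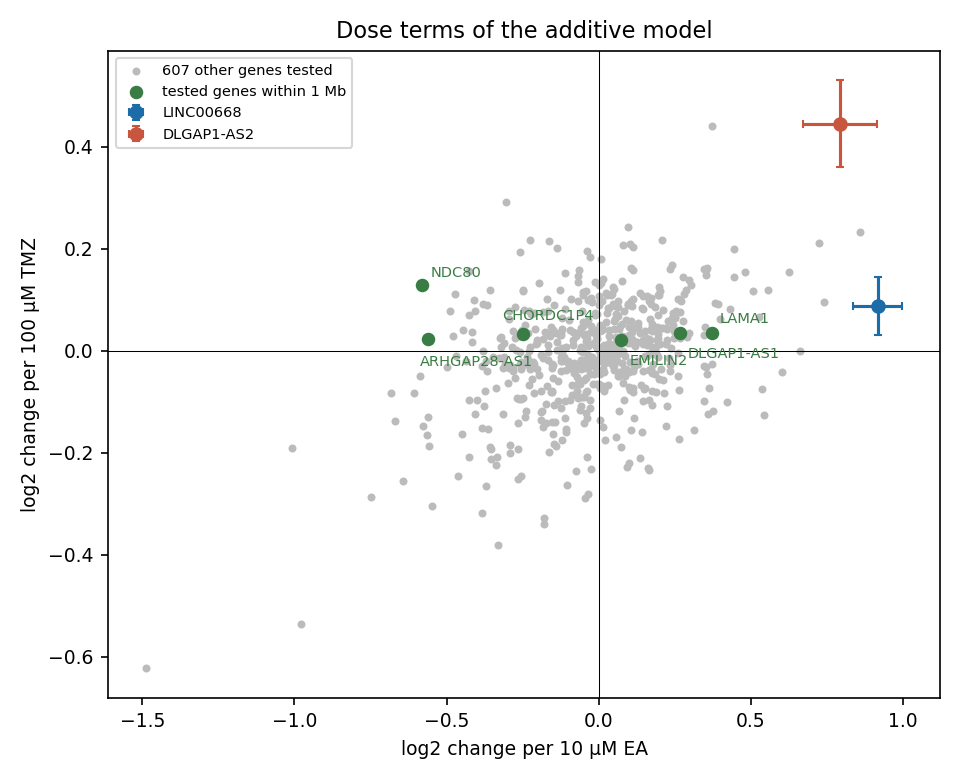
Log2 change per 10 µM EA (horizontal) and per 100 µM TMZ (vertical) of the 609 genes tested, with bars of 1 SE for the pair and the tested genes within 1 Mb in green. LINC00668 lies farthest right at 0.92 and near 0 on the vertical axis at 0.09, and DLGAP1-AS2 lies at 0.79 and highest of all genes at 0.45.

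The number of LINC00668 reads per DLGAP1-AS2 read does not depend on library scaling. With 0.5 counts added to each, this ratio was 13.0, 5.92 and 4.18 in the controls. It was 7.63 in EA30 and 9.14 in EA45, inside the range of the controls. All 4 libraries with TMZ lay below the lowest control, with 1.29 in TMZ600, 2.09 in EA20TMZ580, 3.26 in EA20TMZ380 and 3.51 in EA35TMZ320. By least squares its log2 changed by 0.10 per 10 µM EA (SE 0.10) and by -0.36 per 100 µM TMZ (SE 0.07). The EA slope depended on single controls. Without the first, whose ratio came from 2 counts of DLGAP1-AS2, it was 0.19 (SE 0.05), and EA30 and EA45 then lay above both remaining controls. It was 0.03 (SE 0.09) without the third control and 0.16 (SE 0.08) with 2 counts added. The TMZ slope was -0.30 (SE 0.03) without the first control. The ratio is one of reads and compares no abundances.

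Pairs of libraries that differed mainly in 1 agent gave a less regular picture. From 30 to 45 µM EA without TMZ, LINC00668 was higher by 1.69 (SE 0.23, approximate 95% interval 1.24 to 2.14) and DLGAP1-AS2 by 1.43 (SE 0.51, 0.43 to 2.43). At 20 µM EA, going from 380 to 580 µM TMZ, LINC00668 differed by -0.55 (SE 0.27, -1.07 to -0.03) and DLGAP1-AS2 by 0.09 (SE 0.51, -0.91 to 1.10). Within this pair of single libraries LINC00668 was thus lower in the one with more TMZ, and for DLGAP1-AS2 the interval holds both signs. These intervals carry only the spread of the controls, so they do not settle the sign for a repeated treatment.

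The last 2 pairs had near but unequal doses. EA20TMZ580 against TMZ600, which differ by 20 µM EA, gave 0.38 for LINC00668 (SE 0.28) and -0.32 for DLGAP1-AS2 (SE 0.50). EA35TMZ320 against EA30, which differ mainly by 320 µM TMZ, gave 1.49 for LINC00668 (SE 0.23) and 2.62 for DLGAP1-AS2 (SE 0.51). In that pair both RNAs were higher in the library with TMZ, which also had slightly more EA.

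The product of EA and TMZ concentration was also added to the model, in steps of 10 µM EA times 100 µM TMZ. Per such step its term was -0.03 (SE 0.04) for LINC00668 and -0.04 (SE 0.05) for DLGAP1-AS2. Each SE was larger than the term itself. In a combination the term is multiplied by both concentrations, so it stands for a larger change there than the printed value. Over all genes 0 were called for this term by edgeR, with 26 at an unadjusted p under 0.05. The departures from the additive model were as follows. The observed counts were 1.42 times the fitted ones for LINC00668 and 1.52 times for DLGAP1-AS2 in EA35TMZ320, and 1.40 and 1.50 times in TMZ600. In EA20TMZ580 they were 0.52 and 0.43 times. EA20TMZ380 had 0.85 and 0.74 times the fitted counts, EA30 0.84 and 0.88 and EA45 1.05 and 1.04. The departures of the pair had the same sign in all 6 treated libraries. In the third control they differed in sign, and the largest departure of DLGAP1-AS2 was in the first control, at 0.36 times (2 counts), where LINC00668 had 0.91.

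Signs like those of the pair in EA35TMZ320, TMZ600 and EA20TMZ580 were found in 31 of the 84 other genes called higher in the EA term and in 124 of all 607 other genes. The median ratio of observed to fitted counts over those 84 genes was 1.11 in EA35TMZ320, 0.88 in EA20TMZ580 and 1.00 in TMZ600. This tally was added after the departures of the pair had been seen.

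**Figure D3:**
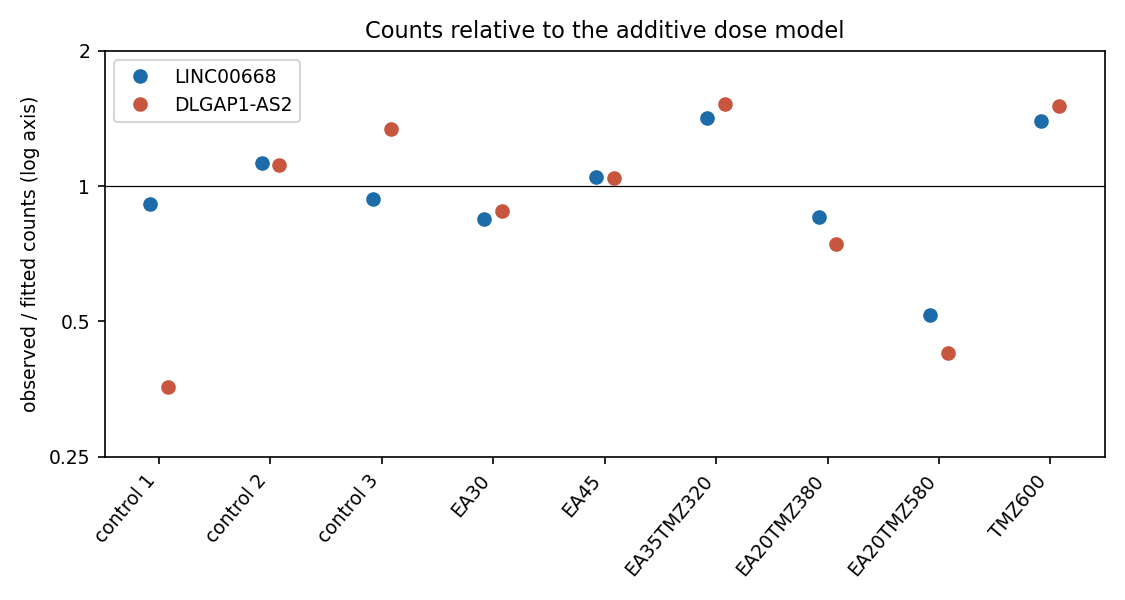
Observed counts divided by those fitted by the additive dose model (log axis) for LINC00668 and DLGAP1-AS2 in each of the 9 libraries. Both RNAs lie above 1 in EA35TMZ320 and TMZ600 and below 1 in EA20TMZ580, and the first control of DLGAP1-AS2 rests on 2 counts.

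The genes around the pair were compared next. The host gene DLGAP1, which encodes a scaffold protein of the postsynaptic density, had 6 counts over its 12 rows and the 9 libraries, too few to test. The nearest tested gene was DLGAP1-AS1, a second antisense lncRNA inside DLGAP1 on the same strand as DLGAP1-AS2 and 6.36 kb from it. It had 112, 92 and 109 counts in the controls (358 ± 28.3 CPM, SD, n = 3) and between 399 and 863 CPM in the treated libraries. It rose by 0.27 per 10 µM EA (SE 0.05, adjusted p = 0.0020, edgeR). Its TMZ term was 0.03 (SE 0.03, adjusted p = 0.65).

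Next to LINC00668, at a distance of 11.9 kb, lies LAMA1, which encodes the laminin alpha-1 chain of basement membranes. It had 16, 17 and 22 counts in the controls (62.8 ± 8.19 CPM, SD, n = 3), 82 and 50 in EA30 and EA45, 24, 47 and 50 in EA35TMZ320, EA20TMZ380 and EA20TMZ580, and 19 in TMZ600. Its EA term was 0.37 per 10 µM (SE 0.09, adjusted p = 0.011, edgeR). Among the libraries with EA, its log2 differences from the controls did not follow the concentration, with 1.20 and 1.35 in the pair at 20 µM, 1.58 in EA30, 0.89 in EA35TMZ320 and 1.42 in EA45. The TMZ term was 0.03 (SE 0.06, adjusted p = 0.83, edgeR), and was -0.0089 without EA20TMZ580 and 0.075 without TMZ600. On the other side of LINC00668, 196 kb away, ARHGAP28-AS1 fell by 0.56 per 10 µM EA (SE 0.10, adjusted p = 0.0014). The nearest genes on either side that could be tested thus had EA terms of opposite sign.

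Within 1 Mb of DLGAP1-AS2, NDC80, a kinetochore protein gene, lay 987 kb away and fell by 0.58 per 10 µM EA (SE 0.07, adjusted p = 4.9e-05, edgeR). EMILIN2, an extracellular matrix gene, had an EA term of 0.07 (SE 0.10, adjusted p = 0.65), which was -0.02 without EA45 and 0.15 without EA35TMZ320, and the pseudogene CHORDC1P4 one of -0.25 (SE 0.12, adjusted p = 0.13). Over all 72 annotated genes within 1 Mb of either RNA, 37 had rows, 25 of these were listed at 0 in every library and 6 were tested. Of the 6, 2 were called higher and 2 lower in the EA term, which is 66.7% against 27.3% of all genes tested, and 0 in the TMZ term, against 3.61%. The median EA term of the 6 was -0.09, against -0.01 over all genes. Of their TMZ terms that of NDC80, 0.13 (SE 0.04, adjusted p = 0.097, edgeR), had the lowest adjusted p, and the DESeq2 Wald test called it. In TMZ600 alone the log2 differences of the 6 from the controls ran from -0.16 for LAMA1 to 0.71 for NDC80. NDC80 had 410 counts there, against 244, 179 and 223 in the controls.

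**Figure D4:**
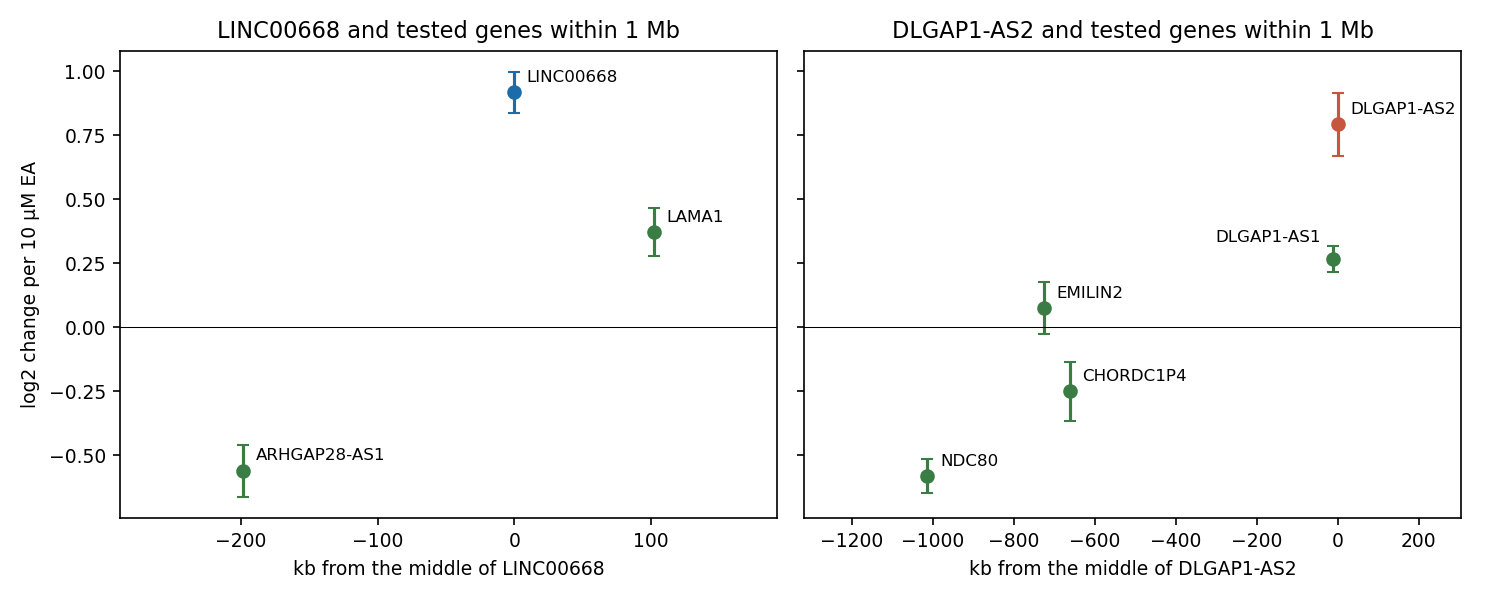
Log2 change per 10 µM EA (bars of 1 SE) of LINC00668, DLGAP1-AS2 and the tested genes within 1 Mb, against the distance in kb between gene centres. The pair lie at 0.92 and 0.79, above every tested neighbour, of which LAMA1 and DLGAP1-AS1 lie highest at 0.37 and 0.27.

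Over the first 15 Mb of chromosome 18, 13 other genes were tested. With EA 3 were called higher and 2 lower, which is 38.5% against 27.3% of all genes, with a median of 0.00 per 10 µM against -0.01. With TMZ 0 were called, against 3.61% of all genes. The third of those higher was CHMP1B, a subunit of the ESCRT-III membrane-scission machinery, at 0.20 (SE 0.05, adjusted p = 0.0075, edgeR), a call that was lost with library totals alone, without the filter, without EA45 and with presence coding. LINC00667, a further lncRNA of the arm, had an EA term of 0.09 (SE 0.09, adjusted p = 0.50, edgeR), which was 0.03 without EA35TMZ320 and 0.14 without TMZ600.

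Among lncRNAs as a class, 106 besides the pair were tested, of 11967 with rows, 10576 of which were listed at 0 in every library. With EA 13 were called higher and 12 lower, which is 23.6% against the 27.3% of all genes, and their median was 0.00. With TMZ 0 were called higher and 4 lower, which is 3.77% against the 3.61% of all genes. Of 40 other lncRNAs known from glioma, 3 were tested, and 1 was called with EA and 1 with TMZ, beside the 27.3% and 3.61% of all genes. NEAT1 had an EA term of -0.20 (SE 0.10, adjusted p = 0.15, edgeR). NNT-AS1 had 0.16 (SE 0.06, adjusted p = 0.059), which was called by the DESeq2 Wald test and without EA20TMZ580. MIR210HG, the host transcript of the hypoxia-responsive microRNA miR-210, fell by 0.98 per 10 µM EA (SE 0.09, adjusted p = 3e-06) and by 0.54 per 100 µM TMZ (SE 0.06, adjusted p = 0.00013). With presence coding its EA call held and its TMZ call was lost (adjusted p = 0.084). Of 36 genes of YAP/TEAD signalling and its targets, 29 were listed at 0 and 1 was tested, DOCK5, which encodes an exchange factor for Rac. DOCK5 fell by 0.42 per 10 µM EA (SE 0.11, adjusted p = 0.016), a call that was lost without EA45, without TMZ600 and with the product term.

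The genes whose levels followed each RNA most closely were sought by Pearson's r of log2 CPM over the 9 libraries, which share library preparation and the 3 controls. The pair had r = 0.84 and Spearman's rho = 0.80 with each other, where DLGAP1-AS2 stood 45th of 608 genes for LINC00668 and LINC00668 stood 26th for DLGAP1-AS2. For LINC00668 the closest were NDUFAF3 (0.98), an assembly factor of mitochondrial complex I, MED10 (0.96), a Mediator subunit, EBLN1 (0.95), AK9 (0.95), an adenylate kinase, and LURAP1L (0.95). Their EA terms were between 0.16 and 0.73 per 10 µM, all below that of LINC00668. NDUFAF3 was low in the controls, at 27.6 ± 4.34 CPM (SD). Most opposite were UPF3A (-0.97), a factor of nonsense-mediated decay, and ZC3H10 (-0.96), a zinc finger protein gene.

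For DLGAP1-AS2 the closest were TMEM33 (0.95), a membrane protein of the endoplasmic reticulum, LOC105375892 (0.94), the unmatched transcript XR_001753092.2 (0.94), COMMD4 (0.93) and NFX1 (0.92). Their TMZ terms lay between 0.10 and 0.15 per 100 µM, well under the 0.45 of DLGAP1-AS2. COMMD4 and LOC105375892 were low in the controls, at 42.9 ± 22.8 and 48.1 ± 5.67 CPM (SD). Most opposite were the unmatched transcripts XR_001753013.2 (-0.98) and XR_924269.2 (-0.96). The lists of the 5 closest genes of the pair had no gene in common. By Spearman's rho 2 of the 5 stayed for LINC00668 and 3 for DLGAP1-AS2.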

How the data were processed

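The authors deposited a table of counts of reads per RefSeq transcript for the 9 libraries, made from QuantSeq 3′ libraries and not normalized. The submitters' processing notes name HISAT2, HTSeq and hg38; versions, strand setting and treatment of ambiguous reads are not given in the sources used here. The table holds 159067 transcripts. Symbols came from RefSeq (GRCh38.p14) for 57752 with and 56298 without the accession version; 45017 (4.67% of counts) stayed unmatched. Counts were summed per gene, and 609 genes with a mean of at least 10 counts were tested. Quasi-likelihood fits with TMM scaling were made in edgeR 4.0.16 (R 4.3.3) and adjusted by Benjamini-Hochberg at 0.05. They were also run on simulated data with less spread between libraries than the dose fit found, so nothing is concluded from that run. SE is the log2 change divided by the square root of F. Log2 CPM used a prior count of 2. Counting intervals are exact Poisson at 95% and cover counting error only. The controls differed by a chi-square per degree of freedom of 3.63 to 5.84, so none was a copy. Alternatives used DESeq2 1.42.0 and limma 3.58.1.

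The members, lists and tests were chosen with earlier results of these data known. Named were the pair, the DLGAP1 locus, tested genes within 1 Mb, the 5 most like and 2 most opposite genes, and called genes of the other lists. Python 3.11.15, pandas 2.3.3, numpy 2.4.6, scipy 1.17.1 and matplotlib 3.10.9 were used.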

Additional observations from a re-analysis of the deposited data

How the results depend on the processing

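Both RNAs kept the sign of both dose terms and of the comparison of the 6 treatments under the other normalizations, tools and filters and without each library in turn. They kept that of each single treatment under the same settings and without each control. Coding by presence of an agent turned the sign of the TMZ term of LINC00668. DLGAP1-AS2, with a mean of 44.2 counts, gave no value where a mean of at least 50 was asked. For LINC00668 the EA term was 0.86 with library totals alone, 0.95 with the product term and 0.85 to 0.99 without one library. Its TMZ term was 0.051 with limma-voom, 0.12 with the product term and 0.0065 to 0.17 without one library. Its difference over the 6 treatments was 2.81 with library totals alone, 2.48 with limma-voom and 2.60 to 3.24 without one library. Library totals alone shifted the median of all genes by treatment, from -0.06 to -0.34 in EA30 and from -0.12 to -0.41 in EA20TMZ380.

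Coded by the presence of each agent, LINC00668 had 2.89 (SE 0.59) for EA and -0.07 (SE 0.55) for TMZ, and DLGAP1-AS2 1.84 (SE 0.62) and 1.65 (SE 0.59). DLGAP1-AS2 was then called in neither term. The EA slope of the ratio of the pair moved from 0.10 to 0.19 without control 1, 0.03 without control 3 and 0.16 with 2 counts added, and its TMZ slope stayed between -0.40 and -0.30.

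Counts of called genes moved more. From 166, the EA term called 64 with presence coding and 60 to 194 without one library (109 without control 2, 60 without EA45). From 22, the TMZ term called 42 with the DESeq2 Wald test, 5 with the product term, 3 with presence coding and 7 to 36 without one library (36 without EA35TMZ320, 7, 10, 11, 12 and 13 without control 2, control 3, EA30, EA20TMZ580 and EA45). From 39, the 6 treatments called 89 with the Wald test and 11 to 64 without one library (11, 12 and 14 without controls 1, 2 and 3, 64 without TMZ600). The cause was not tested. The calls of DLGAP1-AS1, LAMA1, ARHGAP28-AS1, NDC80 and MIR210HG with EA held in each alternative that gave them a value, presence coding included. No paired analysis was possible because only the controls carry replicate numbers.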
